A study of Mus musculus with 24 samples.

Results

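The genes described here encode the subunits of the proteasome and of its activator PA28. Of 37 listed genes, 36 had a probe set that the annotation of the Affymetrix mouse array assigned to them alone, among 12393 genes measured in all, and Psme2 had none and was dropped. Where a gene had several probe sets the brightest, by its mean on 24 arrays, stood for it. Levels were expressed in log2 relative to the median of all genes on the same array. The listed genes were 7 of the alpha ring of the 20S core, 4 structural and 3 constitutive catalytic genes of its beta ring, 3 inducible catalytic genes, 6 ATPases and 11 other subunits of the 19S regulator, and the activator genes Psme1, Psme2 and Psme3.

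The 26S proteasome degrades proteins that carry ubiquitin chains. Its 20S core is a barrel of stacked alpha and beta rings in which the constitutive subunits Psmb5, Psmb6 and Psmb7 cut the substrate, and in immune responses Psmb8, Psmb9 and Psmb10 take their places. The 19S regulator caps the barrel: a base with a ring of ATPases unfolds the substrate, and a lid removes its ubiquitin. PA28 is a different cap, which opens the barrel without ATP. In muscle the pathway is best known for the breakdown of fibre proteins in atrophy, and it also degrades cell cycle proteins in dividing cells.

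The cells were C2C12, an established line of mouse myoblasts, transfected with siRNA against IFT88, a protein of intraflagellar transport that builds primary cilia, or with a negative control siRNA. These 2 siRNAs, written IFT88KD and control, were crossed with 4 culture states. Proliferating cells were adherent in DMEM with 20% FBS, quiescent cells were held in suspension in that medium, replated cells were quiescent cells put back on a surface for 2 h in that medium, and differentiating cells were adherent in DMEM with 2% NHS for 48 h. Each of the 8 groups had 3 arrays. Whether replicates were separate cultures is not given in the sources used here, so the p-values measure the spread between these samples. All groups stem from 1 cell line and the knockdown was transient.

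Ift88 itself was at 0.07, -0.62 and -0.24 on the control proliferating arrays and at -0.72, -0.84 and -0.82 on the IFT88KD ones. It was lower by 0.53 log2 in proliferating (SE 0.17, adjusted p = 0.382), 0.67 in quiescent (adjusted p = 0.0243) and 0.60 in replated cells (adjusted p = 0.0703), and by 0.03 in differentiating cells (adjusted p of 1). The difference thus passed the test within quiescent cells and not within the other states. Of 8 myoblast markers 7 were above the detection cut-off in every group. No endothelial marker was above it in any group, and of 6 macrophage markers at most 2 were, Csf1r and Cd68, while Adgre1, Ptprc, Lyz2 and Mrc1 were under it on every array. Of 5 measured fibroblast markers Pdgfra was above it on every array and Pi16 in all groups except the proliferating ones. Lum was above it on some control quiescent and replated arrays, and Dpt and Thy1 on none. The median of all genes was 4.34 log2 in proliferating, 4.58 in quiescent, 3.64 in replated and 4.44 in differentiating cells as deposited, whereas the 90th percentile was at 7.93, 7.96, 7.62 and 7.86. Replated arrays were thus spread more widely, with 3.98 log2 between median and 90th percentile against 3.39 to 3.59 in the other states, with 3.42 in differentiating cells. Changes that involve replated cells are therefore given under 3 scalings, which are centring on the median, quantile normalisation and the values as deposited.

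A promoter is shown for 4 genes that the results turn on, each with 250 bases before and 50 after the start site as RefSeq gives it for GRCm38.p6. Psmb5 and Psmb6 are constitutive catalytic genes, Psmb10 is the inducible one that differed between the siRNAs, and Psmd11 is the lid gene whose brightest probe set rose on replating under every scaling. Capitals mark matches to TGACNNNGC, the core of the antioxidant response element, which the transcription factors of the Nrf family bind.
Psmb5, chr14:54617946-54618245, minus strand: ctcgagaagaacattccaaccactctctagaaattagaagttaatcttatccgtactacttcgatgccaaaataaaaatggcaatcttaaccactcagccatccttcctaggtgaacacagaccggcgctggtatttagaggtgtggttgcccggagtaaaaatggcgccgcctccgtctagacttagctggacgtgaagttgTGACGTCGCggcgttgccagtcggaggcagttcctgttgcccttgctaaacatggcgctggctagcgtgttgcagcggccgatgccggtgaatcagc
Psmb6, chr11:70525107-70525406, plus strand: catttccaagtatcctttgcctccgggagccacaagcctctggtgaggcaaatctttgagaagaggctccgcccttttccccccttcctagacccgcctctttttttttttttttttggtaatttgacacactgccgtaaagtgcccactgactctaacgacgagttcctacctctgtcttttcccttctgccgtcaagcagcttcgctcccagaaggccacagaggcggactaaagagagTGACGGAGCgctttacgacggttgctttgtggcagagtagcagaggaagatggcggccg
Psmd11, chr11:80428365-80428664, plus strand: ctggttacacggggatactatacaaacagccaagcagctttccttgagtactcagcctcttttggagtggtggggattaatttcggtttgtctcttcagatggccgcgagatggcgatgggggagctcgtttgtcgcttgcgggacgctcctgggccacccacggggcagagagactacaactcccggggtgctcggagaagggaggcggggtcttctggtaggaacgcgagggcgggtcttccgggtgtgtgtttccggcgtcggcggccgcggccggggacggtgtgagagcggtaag
Psmb10, chr8:105938343-105938642, minus strand: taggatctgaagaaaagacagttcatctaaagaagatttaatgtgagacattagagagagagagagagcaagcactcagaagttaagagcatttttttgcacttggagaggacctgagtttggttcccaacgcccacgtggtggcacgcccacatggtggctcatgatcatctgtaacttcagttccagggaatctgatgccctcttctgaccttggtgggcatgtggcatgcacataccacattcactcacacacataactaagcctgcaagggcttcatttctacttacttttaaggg
Read on the gene's strand, the Psmb5 match TGACGTCGC began 47 bases before the start site and the Psmb6 match TGACGGAGC 9 bases before it. Promoters were found in the RefSeq table for 31 of the 37 listed genes. With both strands searched, 4 of these 31 genes held TGACNNNGC (12.9%), the others being Psmc6 and Psmd12, against 14.0% of 27025 genes. The CCAAT box, searched as CCAAT, was in 12 of the 31 (38.7%) against 41.1% of all genes. A form of the interferon-stimulated response element was in 3 (9.7%), Psmb3, Psmd4 and Psme1, against 4.0% of all genes. A match is a stretch of letters and was not tested for binding.

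Proteasome genes gave strong signals in every group. Of the 36 measured genes 34 passed the filter, which kept genes that exceeded the 40th percentile in 3 or more arrays, and these 34 exceeded it on all 24 arrays. Of the 34, 27 stayed above the 75th percentile of all genes on every array and 16 above the 90th. Both genes that failed the filter were inducible catalytic subunits. Psmb8, which replaces Psmb5 in the immunoproteasome, was under the cut-off on all 24 arrays, and Psmb9, which replaces Psmb6, on all except 1 IFT88KD differentiating array. Their group means lay between -3.22 and -2.11 for Psmb8 and between -2.43 and -2.08 for Psmb9, and neither was tested.

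The percentile of the median proteasome gene ordered the states without any scaling. It was 95.2 to 95.9 on the control proliferating arrays and 95.1 to 95.6 on the control differentiating ones, which overlapped. It was between 92.2 and 92.4 on the control quiescent arrays and between 90.6 and 91.4 on the control replated ones, and neither of these overlapped with another control state. In IFT88KD cells the ranges were 95.4 to 95.6, 95.2 to 96, 92.1 to 92.8 and 90.7 to 91.9 in the same order. The lowest state of the 34 genes in control cells, by centred group means, was quiescent for 31, replated for Psma1 and Psmb7, and differentiating for Psmb1. As deposited it was replated for 31 and quiescent for 3, and by quantile normalisation replated for 22 and quiescent for 12. The highest control state was proliferating for 24, replated for 5 and differentiating for 5 after centring. It was proliferating for 19, differentiating for 13 and quiescent for 2 as deposited, and 14, 19 and 1 in that order by quantile normalisation. Which of the quiescent and replated states was lowest, and which of the others was highest, thus depended on the scaling.

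**Figure D1:**
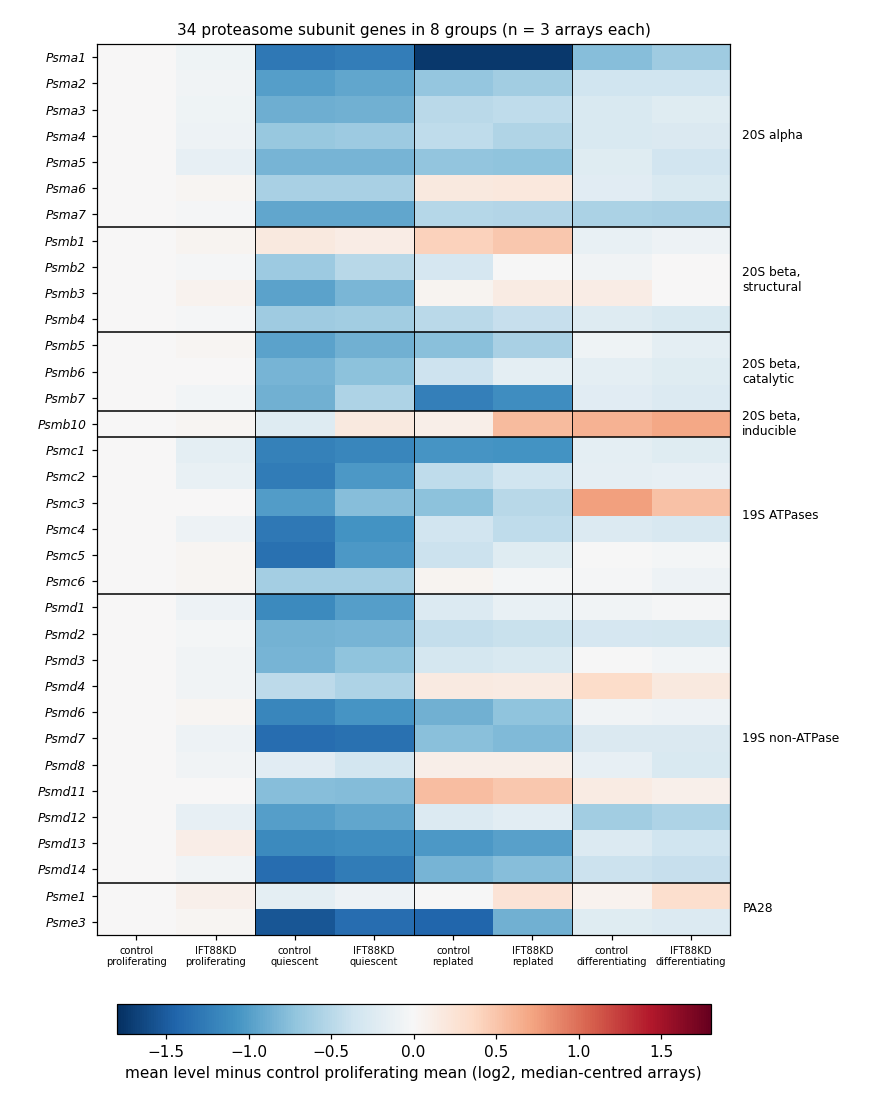
Mean level of 34 proteasome genes (rows, by subunit class) in 8 groups of 3 arrays (columns), as the log2 difference from the control proliferating mean, with arrays centred on their median gene. Both quiescent columns are lower for most genes, while Psmb1 is lower in neither and Psmb10 in the control column only. The control replated column is lower for 26 of the 34 genes, with a median change of -0.44, which is -1.14 as deposited.

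There was a broad fall in proteasome transcripts from adherent proliferating cells to quiescent cells held in suspension. Arrest and loss of attachment came together in this comparison and cannot be told apart. In control cells 30 of the 34 genes were lower in quiescent than in proliferating cells and none was higher, with a median change of -0.90 log2, that is 0.79 below the median change of all 8619 tested genes (-0.11). Over all tested genes 70.7% were called, 40.2% lower and 30.5% higher. In IFT88KD cells, on other arrays, 29 were lower and none higher, with a median of -0.79 against -0.10 for all genes, of which 68.3% were called, 39.3% lower and 29.0% higher. The same 29 genes were called in both, and Psmb7 in control cells, where the difference between siRNAs was 0.37 (SE 0.45, adjusted p = 0.947). With values as deposited, 1 gene was higher and 28 were lower in control cells (41.9% and 29.4% of all genes), and by quantile normalisation 1 and 29 (37.0% and 33.3%). In IFT88KD cells 2 were higher and 29 lower under both (40% and 29.2% of all genes, then 34.9% and 33.0%). In control cells 28 genes were lower under all 3 scalings, and 29 in IFT88KD cells. A smaller share of dividing cells and less transcript in each cell cannot be told apart in bulk RNA. The summed level of 5 cycling markers moved with it, from 7.39 to 7.61 log2 in control proliferating to 4.23 to 4.45 in control quiescent cells, as did those of 8 markers of differentiated muscle, from 2.90 to 6.13 up to 6.62 to 7.22, and of 5 fibroblast markers, from 0.96 to 1.23 up to 4.34 to 4.5, with Dpt and Thy1 under the cut-off on every array. The fibroblast sum was close to its highest marker, with a mean of 4.30 in control quiescent cells. All 3 tested fibroblast markers were called higher, with a median change of 2.48. Pdgfra was above the cut-off on every array, and Pi16 on every control quiescent array and on no control proliferating one. That of the 8 myoblast markers went from 5.99 to 6.52 down to 5.5 to 5.71. Of 7 tested myoblast markers 6 were lower and 1 higher, with a median of -0.82. The part of these markers in the result was not tested.

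The catalytic core took part in the fall. Psmb5, the chymotrypsin-like subunit, was at 4.79, 4.69 and 4.54 on the control proliferating arrays and at 3.80, 3.66 and 3.67 on the quiescent ones. All quiescent arrays were below all proliferating ones, and the change was -0.96 (SE 0.12, adjusted p = 2.79e-07). Psmb6, the caspase-like subunit, fell by 0.83 (SE 0.10, adjusted p = 1.34e-07), from 4.71, 4.54 and 4.43 to 3.78, 3.65 and 3.74. Psmb7, the trypsin-like subunit, had values of 2.13, 2.82 and 2.61 in proliferating and 0.97, 1.91 and 2.06 in quiescent cells. Its groups did not overlap, but its change of -0.87 had an SE of 0.32 (adjusted p = 0.0189) and missed the threshold as deposited (adjusted p = 0.0863) and by quantile normalisation (adjusted p = 0.0688). Without control quiescent replicate 1 the change was -0.53 (adjusted p = 0.152) and without control proliferating replicate 2 it was -0.73 (adjusted p = 0.0801), and over all alternatives the adjusted p reached at most 0.152. The first replicate was the lowest for Psmb7 in all 8 groups. In IFT88KD cells its change of -0.50 was not called in the main fit. It was called there with replicate numbers as a block (adjusted p = 0.0042) and without IFT88KD quiescent replicate 2 (-0.83, adjusted p = 0.0327). The alpha ring, which gates the barrel, fell in 7 of 7 genes, from Psma6 at -0.59 to Psma1 at -1.28. Of the 4 structural beta genes Psmb2, Psmb3 and Psmb4 fell, by 0.64 to 0.97.

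Median falls were larger for the 19S regulator than for the core, a difference that was not tested. The median was -1.15 over 17 regulator genes and -0.83 over 15 core genes in control cells after centring, -0.91 and -0.59 as deposited, and -0.94 and -0.60 by quantile normalisation. In IFT88KD cells the medians were -0.89 and -0.68 after centring. All 6 ATPases of the base fell in control cells, with a median of -1.24, and 10 of the 11 other subunits did, with a median of -0.99. Psmc5, an ATPase, went from 4.05, 3.91 and 3.82 to 2.96, 2.37 and 2.44, a change of -1.34 (SE 0.15, adjusted p = 6.82e-08). Psmd14, the deubiquitinase of the lid, went from 5.32, 5.15 and 5.04 to 3.90, 3.75 and 3.77, a change of -1.37 (SE 0.10, adjusted p = 9.79e-11). Psmd7, its partner in the lid, changed by -1.37 (SE 0.20, adjusted p = 2.42e-06), while another probe set of Psmd7 above the filter gave -0.26 (adjusted p = 0.209). For each of these genes the quiescent arrays all lay below the proliferating ones.

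The activator genes split. Psme3, the nuclear PA28 gamma, had the largest fall of the 34 genes in control cells, from 1.39, 1.30 and 1.25 to -0.27, -0.17 and -0.24, a change of -1.54 (SE 0.13, adjusted p = 6.85e-10). A dimmer probe set of Psme3 that passed the filter changed by -0.74 (SE 0.14, adjusted p = 5.64e-05), so the size depended on the probe set, and a set under the filter gave -0.05. Psme1, the alpha subunit of PA28, was at 2.37, 2.62 and 2.56 in proliferating and 2.42, 2.31 and 2.29 in quiescent cells, ranges that overlapped, with a change of -0.17 (SE 0.10, adjusted p = 0.110), or -0.25 without control proliferating replicate 1 (adjusted p = 0.0380).

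Besides Psme1, Psmb1, Psmb10 and Psmd8 were not called in control cells. Psmb1, a structural subunit next to the catalytic ones, was at 4.61, 4.39 and 4.37 in proliferating and 4.52, 4.75 and 4.61 in quiescent cells. Its change was 0.17 after centring (SE 0.10, adjusted p = 0.134), and it rose by 0.42 as deposited (adjusted p = 8.22e-04) and by 0.37 by quantile normalisation (adjusted p = 0.0011). Psmb10 changed by -0.23 (SE 0.11, adjusted p = 0.0599), from 0.81, 0.69 and 0.52 to 0.35, 0.46 and 0.51, and by -0.31 without control proliferating replicate 3 (adjusted p = 0.0246). Psmd8, a lid subunit, changed by -0.21 (SE 0.18, adjusted p = 0.312). Probe sets of 1 gene did not always move alike: Psma6 fell by 0.59 on its brightest set and by 0.69 on the next, but rose by 0.84 and 1.55 on dim sets. The genes called in control cells had 20 other probe sets above the filter, of which 8 gave a change smaller by over 1.5 times or of the opposite sign, the latter being 3 sets of Psma6 and Psmd4.

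**Figure D2:**
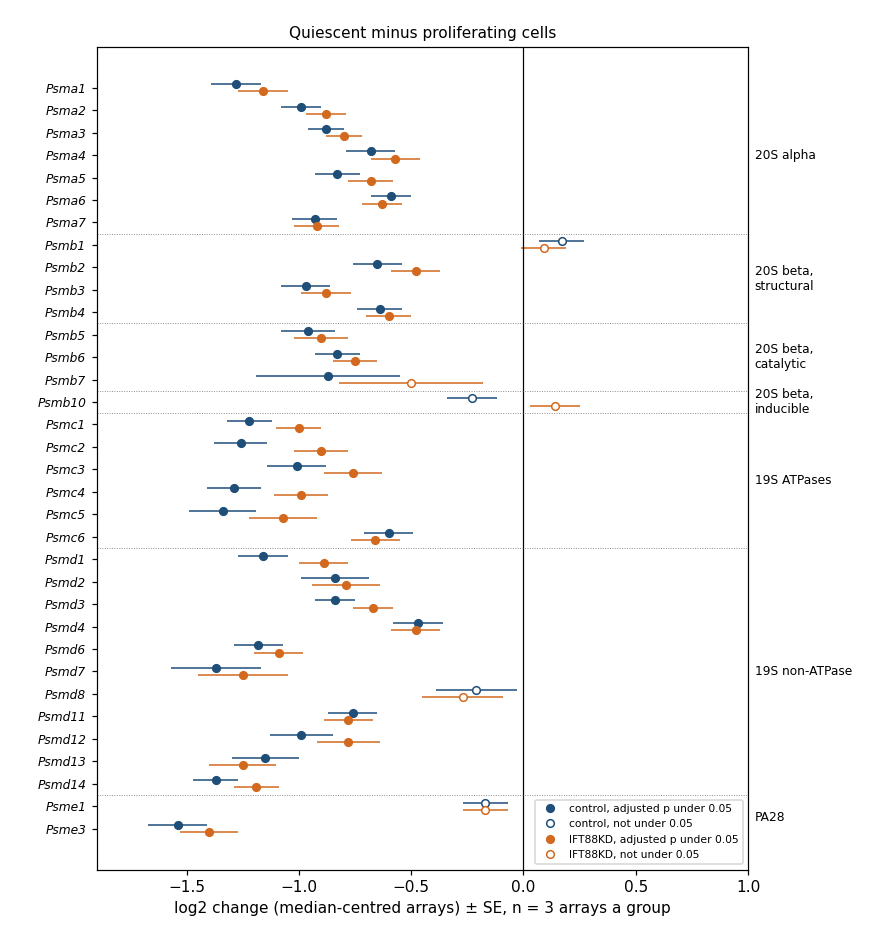
Log2 change from proliferating to quiescent cells for 34 proteasome genes, with the standard error, in control (blue) and IFT88KD cells (orange), from 3 arrays a group centred on their median gene. Filled points passed an adjusted p of 0.05: 30 genes in control and 29 in IFT88KD cells, all lower. Psmb1 lies above 0 in both siRNAs, and Psmb10 at -0.23 in control and 0.14 in IFT88KD cells, without a call.

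Replating for 2 h did not give a change of settled direction. In control cells 22 of 34 genes were called higher and 1 lower than in quiescent cells after centring (52.3% and 17.1% of all tested genes, 69.4% in all), but 1 higher and 25 lower as deposited (9.72% and 66.2%) and 5 higher and 14 lower by quantile normalisation (27.7% and 35.9%). The members followed the median of all tested genes, with a median change 0.02 above it after centring, 0.03 above it as deposited and 0.13 below it by quantile normalisation. In IFT88KD cells the calls were 26 and 1 after centring (51.3% and 17.9% of all genes, 69.2% in all), 1 and 25 as deposited (10.2% and 66.3%), and 4 and 13 by quantile normalisation (28.0% and 34.9%). By the chosen probe sets, only Psmd11 was higher and Psma1 lower under all 3 scalings, in both siRNAs.

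Psmd11, a scaffold subunit of the lid, was at 4.08, 3.75 and 3.81 on the control quiescent arrays and at 5.17, 5.13 and 5.26 on the replated ones. Every replated array was above every quiescent one, and after centring above the proliferating ones at 4.70, 4.51 and 4.73, though not as deposited (-0.16 from proliferating to replated cells). It rose by 1.31 after centring (SE 0.11, adjusted p = 1.08e-09), 0.65 by quantile normalisation (adjusted p = 1.15e-05) and 0.36 as deposited (adjusted p = 0.0029). In IFT88KD cells the rises were 1.26, 0.63 and 0.35. Its 5 other probe sets gave 0.65 to 1.26 after centring and 0.10 to 0.69 by quantile normalisation in control cells. As deposited they gave -0.30 to 0.31, the lowest with an adjusted p of 0.0032, so the rise under every scaling held for the brightest probe set and not for all 6.

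Psma1, an alpha ring gene, was at 2.32, 2.41 and 2.57 in quiescent and at 2.18, 1.98 and 1.76 in replated control cells, with no overlap. It fell by 0.46 after centring (SE 0.11, adjusted p = 7.16e-04), 0.93 by quantile normalisation (adjusted p = 6.40e-08) and 1.41 as deposited (adjusted p = 3.54e-10). Both other probe sets of Psma1 were under the filter and went the other way, at 0.14 and 0.58 after centring, so the call rests on 1 probe set. Among the other genes the largest centred rises in control cells were 1.02 for Psmb3, 0.96 for Psmc5 and 0.94 for Psmc4, which became 0.07, 0.01 and -0.01 as deposited. Regulator genes stood above core genes in each scaling, with medians of 0.62 and 0.28 after centring, -0.33 and -0.66 as deposited, and -0.01 and -0.36 by quantile normalisation. The control quiescent arrays also gave the larger regulator fall in quiescence, so these class differences are not independent. The difference between classes was not tested.

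**Figure D3:**
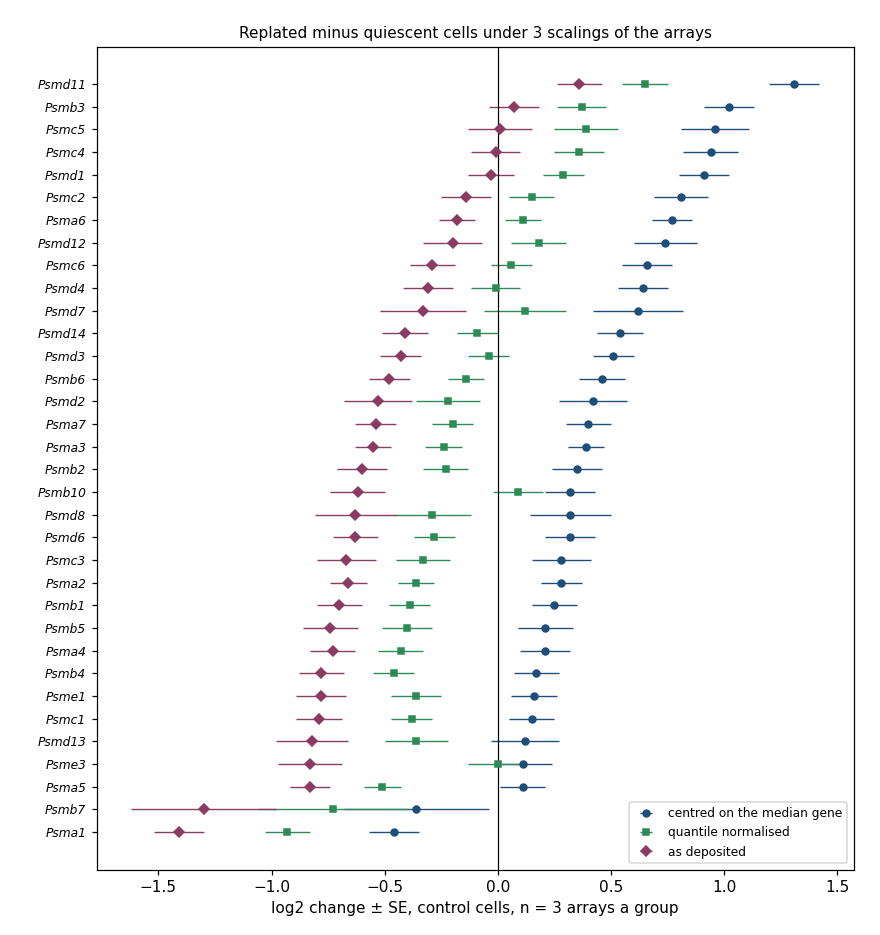
Log2 change from quiescent to replated control cells for 34 proteasome genes with the standard error, from 3 arrays a group, under 3 scalings of the arrays, in the order of the centred change. Most genes lie above 0 after centring (22 called higher) and below 0 as deposited (25 called lower), and Psmd11 and Psma1 are the genes called in the same direction under all 3.

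Most proteasome genes were lower in replated than in proliferating cells. In control cells 24 of 34 genes were lower and 2 were higher after centring (28.0% and 49.6% of all tested genes, 77.6% in all), and the median was -0.44 where all genes had 0.29. The 24 genes were lower under all 3 scalings, which called 33 lower and 0 higher as deposited (54.4% and 23.7% of all genes) and 30 and 0 by quantile normalisation (37.5% and 38.5%). In IFT88KD cells 19 were lower and 3 higher (27.8% and 49.3% of all genes, 77.1% in all), and the 19 held under all 3 scalings, which called 32 lower as deposited (54.9%) and 28 by quantile normalisation (37.7%). This comparison shares its proliferating arrays with the one for quiescence. The largest changes among these in control cells were -1.74 for Psma1 (SE 0.11), -1.43 for Psme3 (SE 0.13), -1.23 for Psmb7 (SE 0.32) and -1.06 for Psmc1, an ATPase (SE 0.10). Probe sets under the filter gave 0.45 for Psma1, 0.66 for Psme3 and 0.48 for Psmc1, and a set of Psme3 above it gave -0.25 (adjusted p = 0.0963). Among the genes called lower, other sets above the filter went the other way for Psmb4 (0.51), Psmd6 (0.08) and Psmd7 (1.57), and the mean of the Psmd7 sets turned its sign. In the same comparison 5 of 5 cycling markers were lower (median -5.12), and 7 of 8 markers of differentiated muscle (2.28), 3 of 3 tested fibroblast markers (2.40) and 2 of 2 tested macrophage markers (1.96) were higher. Their part in the result was not tested. Psmd11 was higher by 0.54 (SE 0.11) and Psmb1 by 0.42 (SE 0.10) after centring, but both were below 0 as deposited, at -0.16 and -0.28, and another probe set of Psmd11 gave -0.38.

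In differentiating cells most proteasome genes were near their proliferating level. In control cells 3 were higher and 7 lower (20.1% and 37.2% of all tested genes, 57.3% in all), with a median of -0.18 against -0.15 for all genes. In IFT88KD cells 2 were higher and 8 lower (18.2% and 36.2%, 54.5% in all), with a median of -0.17 against -0.15. Quantile normalisation turned the split to 6 higher and 3 lower in control cells (26.3% and 28.5% of all genes) and to 6 and 2 in IFT88KD cells (23.8% and 26.5%). As deposited it was 4 and 5 in each, against 24.6% and 30.3% of all genes in control and 22.7% and 28.1% in IFT88KD cells. Psmb10 and Psmc3 were higher, and Psma1 and Psma7 lower, under all 3 scalings and in both siRNAs. The 8 markers of differentiated muscle rose with this state, to a summed level of 9.61 to 9.89 log2 from 2.90 to 6.13 in control proliferating cells. The summed level of the 8 myoblast markers was 6.94 to 7.12 against 5.99 to 6.52, and that of the cycling markers, of which 5 of 5 fell, was 6.09 to 6.4 against 7.39 to 7.61, and their part in these values was not tested.

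Psmc3 was the 1 ATPase of the 6 that was called in either siRNA after centring. It was at 4.90, 4.81 and 4.79 in control proliferating and 5.80, 5.5 and 5.44 in control differentiating cells, with no overlap, and rose by 0.75 (SE 0.13, adjusted p = 3.40e-05), and by 0.53 in IFT88KD cells (SE 0.13, adjusted p = 0.0012). Psmb10 was at 1.16, 1.44 and 1.27 in differentiating control cells, above each proliferating array, and rose by 0.62 (SE 0.11, adjusted p = 5.21e-05) and by 0.65 in IFT88KD cells (adjusted p = 3.28e-05). The constitutive subunit that it replaces, Psmb7, changed by -0.21 (SE 0.32, adjusted p = 0.596). Psmd4, a ubiquitin receptor of the regulator, rose by 0.33 in control cells (SE 0.11, adjusted p = 0.0178) and its value was 0.24 in IFT88KD cells (adjusted p = 0.0766). Another probe set of Psmd4 gave -0.06 in control cells, and the control call was lost without proliferating replicate 3 (0.28, adjusted p = 0.0677), without differentiating replicate 1 (0.29, adjusted p = 0.0627) and with the mean of its probe sets (0.22, adjusted p = 0.0563).

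Of the genes lower in differentiating cells, 5 of 7 in control and 4 of 8 in IFT88KD cells were of the alpha ring after centring, and of the 3 lower in control cells by quantile normalisation Psma1 and Psma7 were. In control cells Psma1 fell by 0.76 (SE 0.11, adjusted p = 3.72e-06), from 3.83, 3.72 and 3.59 to 3.11, 2.85 and 2.89, and Psma7 by 0.57 (SE 0.10, adjusted p = 8.80e-05), from 4.83, 4.61 and 4.58 to 4.13, 4.05 and 4.11. Neither gene had overlapping arrays. Psma2, Psma3 and Psma4 fell by 0.27 to 0.36, and of the lid genes Psmd12 fell by 0.62 (SE 0.14, adjusted p = 6.15e-04) and Psmd14 by 0.38 (SE 0.10, adjusted p = 0.0030). Psmd14 was not called by quantile normalisation (-0.17, adjusted p = 0.114). In IFT88KD cells the alpha genes called were Psma1, Psma2, Psma6 and Psma7. The count of 8 lower genes there was 4 without differentiating replicate 2 and 5 without proliferating replicate 2. With replicate numbers as a block 10 genes were lower in control and 11 in IFT88KD cells, where Psmb5 (-0.21, adjusted p = 0.0344) and Psmb6 (-0.23, adjusted p = 0.0345) were among those gained. The share of all tested genes lower with the block is not given here.

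**Figure D4:**
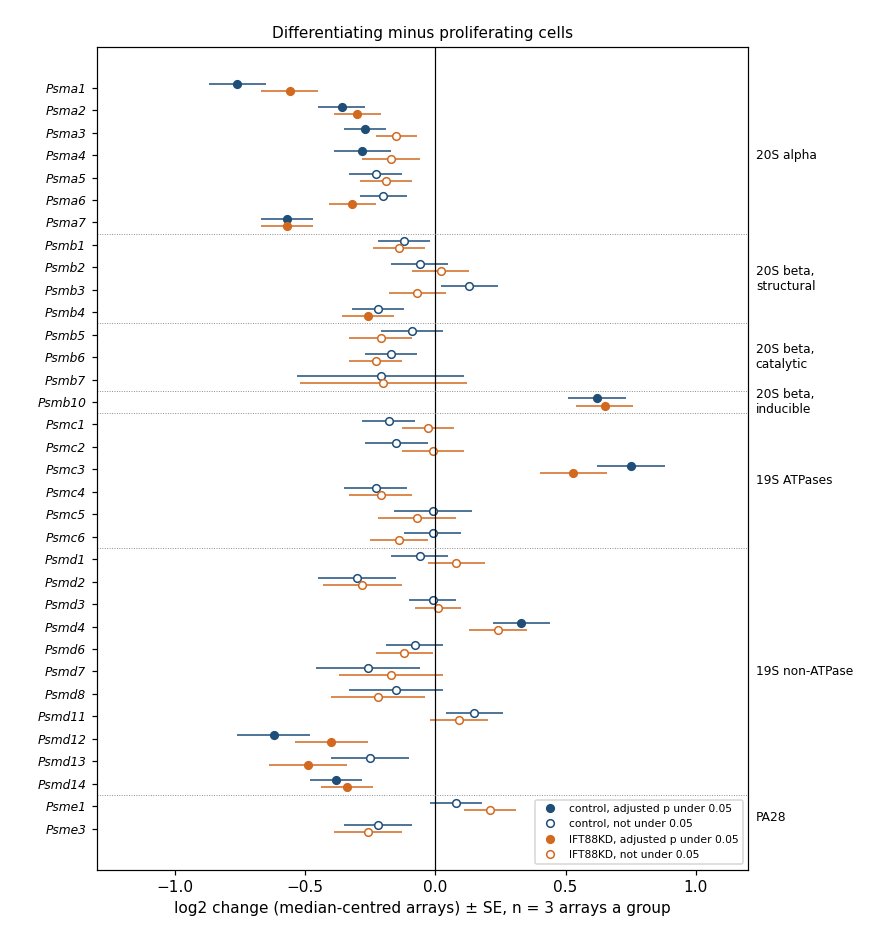
Log2 change from proliferating to differentiating cells for 34 proteasome genes with the standard error, in control (blue) and IFT88KD cells (orange), from 3 arrays a group centred on their median gene. Filled points passed an adjusted p of 0.05: Psmc3 and Psmb10 lie to the right in both, Psma1 and Psma7 to the left, and most others near 0, a split that quantile normalisation moves towards higher calls.

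Most proteasome genes were not called between IFT88 and control siRNA. Ift88 itself was called lower within quiescent cells only. Its difference was -0.03 (SE 0.17) in differentiating cells, so the absence of calls there cannot show what a lower Ift88 level does. Within proliferating cells limma called 0 of 34 (0.383% of all tested genes), with 0 at an unadjusted p under 0.05 (6.51% of all genes), and within differentiating cells 0 of 34 (0.116%, 0.0696% higher and 0.0464% lower), with 1 at an unadjusted p under 0.05 (4.9% of all genes). Within quiescent cells it called 1 of 34 higher and none lower (3.24% and 2.11% of all genes, 5.35% in all), and within replated cells 2 higher and none lower (1.51% and 1.13%, 2.63% in all). This fit, and those without 1 array, left out the pairing of arrays by replicate number between siRNAs, which had correlations of 0.256 to 0.708. With replicate numbers as a block, Psmc2 and Psmc5 were also called in quiescent and Psmb2 in replated cells. The share of all tested genes called with the block is not given here. Median differences in the main fit were 0.05 in quiescent, 0.06 in replated and -0.03 in both other states. In a separate count, the IFT88KD replated arrays all lay above the control ones for 10 of 34 genes (29.4%), against 9.22% of all tested genes, and below them for 0 (9.58%). In quiescent cells these counts were 3 (12.9% of all genes) and 0 (12.4%), in proliferating cells 0 (4.49%) and 2 (5.02%), and in differentiating cells 0 (5.2%) and 0 (5.6%). No difference of the IFT88 effect between states was called for the 34 genes by limma: the shares of all tested genes called were 1.31% for quiescent minus proliferating, 0.325% for replated minus proliferating and 0.0348% for differentiating minus proliferating. At an unadjusted p under 0.05 there were 2 of the 34 (5.88%, against 8.49% of all genes), 2 (5.88%, against 6.82%) and 0 (against 3.67%).

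Psmb10 was the gene called in both the quiescent and the replated state. In quiescent cells it was at 0.35, 0.46 and 0.51 with control siRNA and at 0.99, 0.84 and 0.73 with IFT88 siRNA. In replated cells the values were 0.77, 0.89 and 0.63 against 1.39, 1.17 and 1.16, and neither pair of groups overlapped. It was higher by 0.41 in quiescent (SE 0.11, adjusted p = 0.0251, 0.0138 to 0.139 over alternatives) and by 0.47 in replated cells (SE 0.11, adjusted p = 0.0180, 0.0086 to 0.127). In proliferating and differentiating cells the groups overlapped, with differences of 0.04 and 0.07 (adjusted p of 1 for both). The effect in quiescent minus that in proliferating cells was 0.37 (SE 0.15, adjusted p = 0.447) and in replated minus proliferating cells 0.43 (SE 0.15, adjusted p = 0.446), so a difference between states was not shown. In quiescent cells the call was lost as deposited (0.39, adjusted p = 0.0570) and with the arrays of both quiescent groups alone (adjusted p = 0.0589), and it was lost without IFT88KD replicate 1 (0.34, adjusted p = 0.139) or 2 (adjusted p = 0.0686) and without control replicate 1 (adjusted p = 0.0993) or 2 (adjusted p = 0.0730). In replated cells it was lost with the arrays of both replated groups alone (adjusted p = 0.127), without IFT88KD replicate 1 (adjusted p = 0.102) and without control replicate 3 (adjusted p = 0.0885). With replicate numbers as a block, limma kept the call in quiescent (0.41, adjusted p = 0.0138) and in replated cells (0.47, adjusted p = 0.0086).

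Psme3 was the other gene called in replated cells, at -0.04, 0.20 and -0.52 with control siRNA against 0.55, 0.40 and 0.36 with IFT88 siRNA. The groups did not overlap, and the difference was 0.55 (SE 0.13, adjusted p = 0.0198, 0.0031 to 0.232 over alternatives other than single probe sets). Without control replicate 3, the lowest array, it was 0.35 (adjusted p = 0.102), without IFT88KD replicate 1 it was 0.50 (adjusted p = 0.0937), and with the arrays of both replated groups alone the adjusted p was 0.232. Other probe sets of Psme3 differed by 0.16 (SE 0.14, adjusted p = 0.731) and 0.09 (adjusted p = 0.885), and the mean of its sets by 0.29 (adjusted p = 0.0786), which ended the call. Psme1 was at 2.56, 2.58 and 2.38 against 2.78, 2.75 and 2.76 in replated cells, without overlap, but its difference of 0.26 (SE 0.10, adjusted p = 0.173) was not called. With replicate numbers as a block, 3 genes were called in quiescent and 3 in replated cells, all higher. They were Psmb10, Psmc5 (0.30, adjusted p = 0.0204) and Psmc2 (0.22, adjusted p = 0.0402) in quiescent cells, and Psmb10, Psme3 and Psmb2 (0.29, adjusted p = 0.0178) in replated cells. The share of all tested genes called with the block is not given here, so these counts cannot be set against it.

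Other genes differed between the siRNAs in the same arrays. Of 5 cycling markers 4 were higher with IFT88 siRNA in quiescent and 3 in replated cells, among them Mki67 by 2.28 (SE 0.20) and 2.20 (SE 0.20), and the summed level of the 5 was 4.81 to 4.96 log2 against 4.23 to 4.45 in quiescent and 5.29 to 5.30 against 4.87 to 4.96 in replated cells. The summed level of the 6 macrophage markers was -0.25 to 0.04 with IFT88 siRNA against 0.35 to 0.50 in quiescent cells, and 0.57 to 0.76 against 0.98 to 1.24 in replated cells. Summed levels were higher with IFT88 siRNA for the markers of differentiated muscle, at 7.26 to 7.99 against 6.62 to 7.22 in quiescent and 7.41 to 7.83 against 6.58 to 7.01 in replated cells, and for the myoblast markers in quiescent cells, at 5.87 to 5.94 against 5.5 to 5.71. They were lower for the fibroblast markers, at 3.97 to 4.18 against 4.34 to 4.5 and 2.76 to 3.48 against 3.53 to 3.73. In both states limma called 0 of 8 muscle and 0 of 7 tested myoblast markers, and 1 of 2 tested macrophage markers lower. Of 3 tested fibroblast markers 1 was lower in quiescent and 0 in replated cells. The median difference of the muscle markers was 0.73 in quiescent, 0.74 in replated, 0.77 in proliferating and -0.25 in differentiating cells. The part of these genes in the Psmb10 and Psme3 values was not tested.

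**Figure D5:**
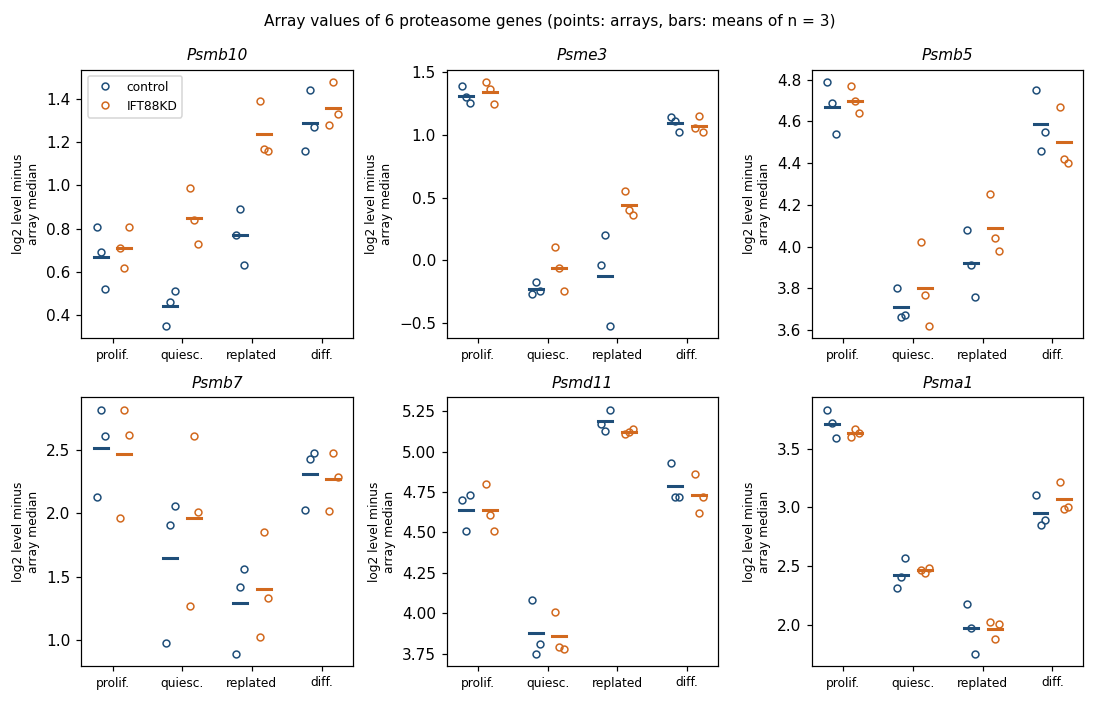
Log2 level relative to the array median of 6 proteasome genes in 4 culture states, with each array as a point, the mean of 3 as a bar, and control in blue and IFT88KD in orange. Psmb10 is separated by siRNA in quiescent and replated cells, Psme3 in replated cells, Psmb7 is spread widely within groups, Psmd11 is highest in replated cells after centring, and Psma1 is lowest there.

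Genes that serve the proteasome were read from lists beside the subunits. Of 8 tested assembly factors 7 were lower in quiescent than in proliferating control cells and none was higher. Their median was -0.66 against -0.11 for all genes, of which 40.2% were lower. As deposited 6 were lower (29.4% of all genes), and by quantile normalisation 7 (33.3%). Psmg1, a chaperone that pairs alpha subunits, fell by 1.19 (SE 0.14, adjusted p = 8.50e-08). Of 11 tested genes for proteasome-associated proteins and inhibitors 9 were lower and none higher after centring, and 6 lower and 2 higher under both other scalings. The shares of all genes lower and higher were 40.2% and 30.5% after centring. They were 29.4% and 41.9% as deposited, and 33.3% and 37.0% by quantile normalisation. The deubiquitinases Usp14 and Uchl5, which dock on the regulator, fell by 1.5 (SE 0.19, adjusted p = 5.04e-07) and 1.48 (SE 0.12, adjusted p = 4.48e-10). In differentiating control cells 3 of the 8 assembly factors and 8 of the 11 associated genes were lower after centring and none of either list was higher, where 37.2% of all tested genes were lower, so that the share of assembly factors was that of all genes.

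Regulators and antigen processing partners were more often higher than lower in quiescent cells. Of 9 tested genes for regulators of proteasome transcription 5 were higher and 1 lower in quiescent control cells after centring (30.5% and 40.2% of all tested genes), and 7 and 1 under both other scalings (41.9% and 29.4% of all genes as deposited, 37.0% and 33.3% by quantile normalisation). Nfe2l1, the factor Nrf1 that drives proteasome genes when the proteasome is impaired, rose by 0.60 (SE 0.13, adjusted p = 4.72e-04), and Maff, a small Maf partner, by 3.14 (SE 0.23, adjusted p = 8.95e-11). Nfe2l1 was lower with IFT88 siRNA by 0.54 in quiescent (SE 0.13, adjusted p = 0.0175) and by 0.51 in replated cells (SE 0.13, adjusted p = 0.0449), the latter with an adjusted p of 0.0539 as deposited and 0.0838 by quantile normalisation. Of 9 tested antigen processing partners 6 were higher and 1 lower in quiescent control cells, including H2-K1, a class I heavy chain, by 2.36 (SE 0.12, adjusted p = 1.67e-13) and Tapbp, which loads peptides on class I, by 1.45, while Psmb8 and Psmb9 stayed under the cut-off there. The summed level of the macrophage markers went from between -0.29 and -0.20 to between 0.35 and 0.50 in the same comparison, and their part was not tested. Of 6 tested muscle ubiquitin ligases 2 were higher and 1 lower under every scaling, near the shares of all genes higher, and Fbxo32, the atrophy ligase atrogin-1, rose by 1.69 (SE 0.35, adjusted p = 2.08e-04).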

How the data were processed

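RNA of C2C12 cells was measured on 24 Affymetrix arrays, and the deposited table held log2 values of 22690 probe sets. Per the submitters' processing notes the authors used GCOS, Affymetrix Expression Console and affy. Versions, normalisation and whether states were normalised together are not given in the sources used here. Probe sets were named with the array's platform annotation: 20380 had 1 gene, 691 several and 1555 none, and 64 were controls. Genes that exceeded the 40th percentile in 3 or more arrays, 8619 in number, were fitted with limma 3.58.1 in R 4.3.3, in 1 model with a coefficient per group, after centring each array on its median gene. The Benjamini-Hochberg adjustment ran over those 8619 genes, the threshold was 0.05, and errors are standard errors (SE). The number of arrays limits the precision. Proteasome genes and lists were chosen with earlier results of these data known. Array values are given for the 4 largest rises and falls of a contrast, for the catalytic and the activator genes, and for up to 4 genes of each other list. The rest are covered by counts and ranges. Alternatives were other scalings, filters, probe set rules, variance models, array subsets and a replicate block. The list of 6 ubiquitin and E1 genes had 0 measured. Adipocyte and epithelial markers were read too. Of 4 adipocyte markers 1 was above the cut-off on an array in each quiescent group and none in the other groups. Of 5 epithelial markers 1 was above it in control proliferating and in control differentiating cells, and none in the other groups. In simulated data built on the siRNA contrast in quiescent cells (8619 genes) the fit called 34% of 50 genes shifted by 0.5 log2 and 88% of 50 shifted by 1, and 7 of its 118 calls were false. Arrays of equal replicate number deviated together within a state, with correlations across genes of 0.256 to 0.708 between siRNAs, between replated and quiescent cells (0.157 to 0.426) and between control differentiating and proliferating cells (0.164 to 0.28), where numbers pair the arrays. For the other state changes some pairs were under 0.1 (lowest -0.0597), and numbers were not taken to pair arrays. The main fit used no block in any comparison. It thus left out the pairing between siRNAs, and the fit with a block is given as an alternative.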

Additional observations from a re-analysis of the deposited data

How the results depend on the processing

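Of the settings tried, the scaling of the arrays changed most. With values as deposited, called genes were 0 for IFT88KD minus control in quiescent cells, 1 higher in control and 2 in IFT88KD cells for quiescent minus proliferating, 1 higher and 25 lower in both siRNAs for replated minus quiescent, 0 higher in both siRNAs and 32 lower in IFT88KD cells for replated minus proliferating, and 4 higher and 5 lower in IFT88KD cells for differentiating minus proliferating. By quantile normalisation they were 1 and 2 higher for quiescent minus proliferating, 5 higher and 14 lower in control and 4 and 13, 17 in all, in IFT88KD cells for replated minus quiescent, 0 and 1 higher for replated minus proliferating, and 6 higher and 3 lower in control and 6 and 2 in IFT88KD cells for differentiating minus proliferating. With all probe sets of a gene averaged, 1 gene was called between siRNAs in replated cells, 1 was higher in each siRNA for quiescent minus proliferating, 0 were lower for replated minus quiescent, and 4 and 5 were higher for replated minus proliferating. With the arrays of the compared groups only, 0 were called between siRNAs in quiescent and 0 in replated cells. With a replicate block, 3 were called between siRNAs in quiescent cells and 2 were lower for replated minus quiescent in each siRNA. The block moved no other count by over 1.5 times. Shares of all tested genes are not given here for averaged probe sets, for the compared groups only or for the block.

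Over the 34 genes, signs for replated minus quiescent turned as deposited for 29 in control and 30 in IFT88KD cells, of which 19 and 24 had been called, and by quantile normalisation for 20 and 19, of which 11 and 13 had been called. Among the called genes described by name they turned as deposited in control cells for Psmb6 (-0.48), Psmb10 (-0.62) and Psmc4 (-0.01) and in IFT88KD cells for Psmb5 (-0.63), Psmb6 (-0.36), Psmb10 (-0.53), Psmc5 (-0.10), Psmd1 (-0.07), Psme1 (-0.58) and Psme3 (-0.42). For replated minus proliferating they turned in control cells for Psmb1 (-0.28) and Psmd11 (-0.16), and in IFT88KD cells for Psmb1 (-0.25), Psmb10 (-0.17) and Psmd11 (-0.21). By quantile normalisation the called genes described by name that turned were Psmb6 (-0.14 and -0.04 in the 2 siRNAs), Psmb5 (-0.28), Psme1 (-0.20) and, against proliferating cells, Psmb1 (-0.01). Other probe sets of Psma1 gave 0.14 and 0.58 in control and 0.36 and 0.66 in IFT88KD cells for replated minus quiescent, 0.00 and 0.45, and 0.18 and 0.44, against proliferating cells, and the mean of its probe sets 0.04. Against proliferating cells, other sets gave -0.03 for Psmb1 in both siRNAs, 0.48 for Psmc1, -0.38 and -0.40 for Psmd11, and 0.66 and 0.74 for Psme3, and -0.06 for Psmd4 in differentiating cells. The cause of these turns was not tested.

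Leaving out 1 array at a time gave these ranges of called genes: 0 to 1 and 0 to 2 between siRNAs in quiescent and replated cells, 0 to 1 higher in control cells for quiescent minus proliferating, 1 to 2 lower in IFT88KD cells for replated minus quiescent, and 6 to 13 called, 4 to 11 of them lower, in IFT88KD cells for differentiating minus proliferating. No sign of a called gene turned in these fits. With probe sets of type x_at set aside up to 2 signs a comparison turned, none of a called gene. Averaging probe sets turned the called Psma6 for quiescent minus proliferating and the called Psmd7 for replated minus proliferating in both siRNAs. Genes of the other lists were compared over the 3 scalings only. The other probe sets of Psmd11 were rescaled after seeing the data. With 3 arrays a group, small differences between siRNAs were rarely called in the simulated data, where 2% of genes changed by 0.25 log2 were called. That simulation was built on the siRNA contrast in quiescent cells and drew its arrays independently. Its share does not carry over to the state changes, where most tested genes were called.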
